A study of Homo sapiens with 6 samples.

Results

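A readthrough gene is an annotated gene whose transcripts run from one gene into the next gene on the same strand, so that exons of both are joined in 1 RNA. The set described here is made of the rows of the gene table whose symbol joins, with 1 hyphen, the symbols of 2 other genes in that table, called its parent genes here. There were 58 such genes among 16798, and no parent gene was shared, so that 58 loci with 116 parent genes resulted. The transcript table held 104 of its 79213 transcripts for them, and 33 of the readthrough genes had 1 transcript. BIVM-ERCC5 prompted the choice of the set through its values in these samples, so its contrast, with that of BIVM and ERCC5, is given as a description with no test. The other 57 readthrough genes were chosen by their symbols alone.

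RNA-seq was performed on COV434 cells, an immortalized human line labelled as granulosa cells (GCs). The 3 controls were labelled WT with no treatment, and 3 samples labelled CTX had received 15 µM 4HC for 24 h. Whether the controls received a vehicle is not given in the sources used here. 4HC is the active form of the chemotherapy drug cyclophosphamide (CTX), an agent that alkylates DNA. COV434 is 1 line, and no source used here says whether the samples of a condition were grown separately. The p-values therefore rest on the spread between these samples, which may be technical. For each gene, edgeR also draws that spread toward the spread of all genes, so a gene with scattered replicates can still pass. The defining GC markers were nearly absent. FOXL2, FSHR, CYP19A1, NR5A1, GATA4 and STAR had at most 3 counts in any sample, while AMH had 63 to 106, INHA 8 to 19 and INHBA 2 to 15. Of the markers of other ovarian cells, the stromal gene DCN had 721 to 838 counts and COL1A1 13 to 24, and the oocyte gene ZP3 had 199 to 263 and GDF9 19 to 31. The leukocyte gene PTPRC had 19 to 43 counts, the theca genes CYP17A1 and INSL3 at most 7, and the endothelial genes PECAM1 and VWF at most 3. AMHR2 and BMP15 had no row in the table used.

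A transcript normally ends at its own poly(A) signal, where the cleavage and polyadenylation complex cuts the RNA and the exonuclease XRN2 helps to release the polymerase. When the polymerase passes that site and reaches the next gene, the last splice donor upstream can be joined to an acceptor downstream. Some joined transcripts keep an open reading frame, and others carry an early stop codon and are targets of nonsense-mediated decay (NMD). Sequencing reads from their exons are mostly identical to reads from the parent genes, and they are told apart by reads across the joining exon junction and by reads from any exon sequence that the parent genes lack.

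Transcript structures were taken from GENCODE release 29 on GRCh38, which pairs the RefSeq accession of a transcript with Ensembl identifiers. A transcript overlapping exons of both parent genes was found for 49 of the 58 genes (84.5%). Only 1 transcript per gene was used, the matching one with the most counts summed over all samples. In 47 of them an exon of the upstream gene was joined directly to an exon of the downstream gene, and in 41 the junction lay in coding sequence on both sides. The joined exons were 679 to 105499 bases apart in the genome, with a median of 20375. In 32 of the 49 the coding sequence followed the reading frame of both parent genes, in 9 that of the upstream gene only, in 7 that of the downstream gene only and in 1 that of neither. Short stretches in frame, such as 17 bases in RBM14-RBM4, were not counted. The 1 with neither was ABHD14A-ACY1, whose coding sequence fills all 1758 bases of its transcript. Frames were counted from the first coding base, so its class is uncertain if that sequence is incomplete. Of all 50-base windows in a readthrough transcript, a median of 5.34% were found in no transcript of either parent gene. The share was lowest in BIVM-ERCC5, at 0.96% (49 of 5094 windows), and highest in CENPS-CORT, at 58.34%.

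The junction of BIVM-ERCC5 and those of the called readthrough genes with a coding junction are shown because these bases set each readthrough transcript apart from both of its parent genes. Lower case marks the last 20 bases of the upstream exon and capitals the first 20 bases of the downstream exon, read along the transcript. None of these junction sequences was found in a listed transcript of either parent gene. The POC1B-GALNT4 junction is that of NM_001199781, which had 0 counts in each 4HC sample. The junction of its other transcript, NM_001199782, was not examined.
BIVM-ERCC5: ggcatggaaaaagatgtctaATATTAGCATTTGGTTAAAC
TVP23C-CDRT4: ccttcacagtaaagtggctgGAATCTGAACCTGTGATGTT
ABHD14A-ACY1: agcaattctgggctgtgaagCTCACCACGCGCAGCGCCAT
POC1B-GALNT4: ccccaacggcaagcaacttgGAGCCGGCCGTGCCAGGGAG
FMC1-LUC7L2: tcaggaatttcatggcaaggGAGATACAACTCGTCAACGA
TGIF2-RAB5IF: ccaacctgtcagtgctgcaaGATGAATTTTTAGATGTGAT
ISY1-RAB43: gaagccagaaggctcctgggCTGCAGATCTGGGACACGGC
RPS10-NUDT3: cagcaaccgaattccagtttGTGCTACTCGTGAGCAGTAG

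The BIVM-ERCC5 transcript lies on the plus strand at chr13:102807146-102876001 (GRCh38). It has 23 exons and 5143 bases, of which 9 exons overlap BIVM and 14 overlap ERCC5. Its junction joins exon 9, ending at base 102839803, to exon 10, starting at base 102852118, across 12314 bases. Of its 4920 coding bases, 1450 are in the frame of BIVM and 3470 in that of ERCC5. The TVP23C-CDRT4 junction spans the widest gap, 105499 bases on the minus strand of chromosome 17, and that of POC1B-GALNT4 the narrowest, 679 bases on the minus strand of chromosome 12.

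The expected counts of a sample, which are estimates of the reads per gene and need not be whole, summed to between 16133786 and 16702316. The 58 readthrough genes together took 5452 to 6211 counts per sample, or 0.0333% to 0.0385% of the total. All 58 had a count above 0 in at least 1 sample, 32 in every sample, and 25 had at least 10 counts in every sample. A further 11 stayed below 10 counts in every sample. The filter on low counts left 37 readthrough genes for testing and removed 21.

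BIVM-ERCC5 was near 0 in the controls and present in every 4HC sample. BIVM encodes a protein of little-known function, and ERCC5 encodes XPG, the endonuclease that cuts on one side of a lesion in nucleotide excision repair. The counts of BIVM-ERCC5 were 0.06, 0 and 0 in controls and 177.85, 80.74 and 93.03 in 4HC samples. Set against a floor of 3 counts per library for the controls, the mean of the 4HC samples was 39.1-fold higher. That floor covers counting error only and not error in dividing reads within the locus, so the fold is no lower bound. BIVM had 1122, 1053 and 1163 counts in controls and 1113, 1149 and 1146 in 4HC samples. ERCC5 had 680, 678 and 740 in controls and 662, 706 and 713 in 4HC samples. The control and 4HC values overlapped in both parent genes. The sum of the 3 genes was 1802, 1731 and 1903 in controls and 1953, 1935 and 1952 in 4HC samples, a mean difference of 135 counts beside one of 117 counts for BIVM-ERCC5 alone.

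**Figure D1:**
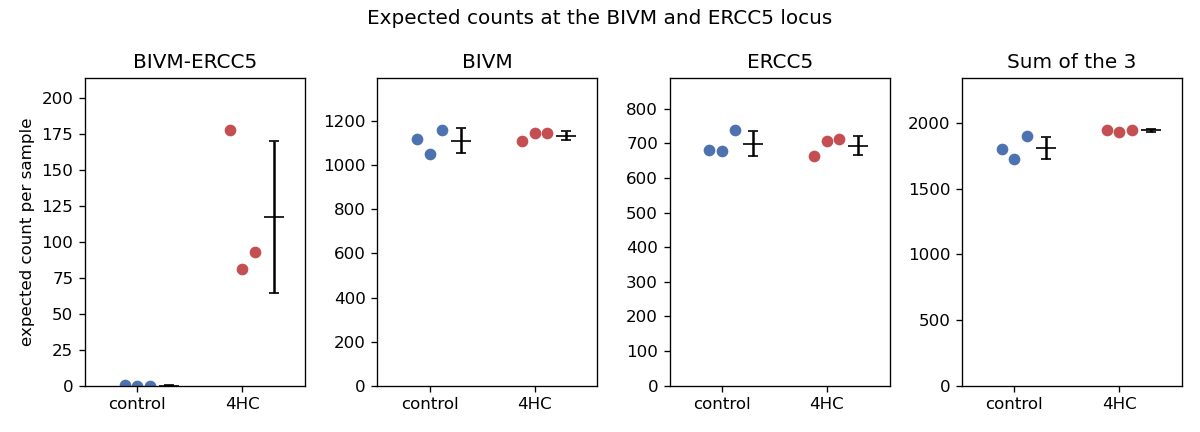
Expected counts per sample (y axis, from 0, with a scale of its own in each panel) of BIVM-ERCC5, BIVM, ERCC5 and their sum in 3 control and 3 4HC samples (x axis). Points are samples and the cross with its bar is the mean with 1 SD. BIVM-ERCC5 was at or near 0 in the controls and between 80.74 and 177.85 in 4HC, while the parent genes overlapped.

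Within the locus the readthrough gene took at most 0.00333% of the counts in a control, and 9.11%, 4.17% and 4.77% in the 4HC samples. Scaled to length and depth as TPM, its level was 2.30 ± 1.02 (SD, n = 3) in 4HC and 0 in the controls, beside 31.3 ± 0.729 for BIVM and 18.3 ± 0.790 for ERCC5 in 4HC. All of its counts belonged to the single transcript NM_001204425. ERCC5 was also listed with a single transcript, NM_000123. BIVM had 2, of which NM_017693 took most of the counts, with 998 to 1101 over the 6 samples, and NM_001159596 took 46.1 to 124. Outside the windows over its junction the sequence of BIVM-ERCC5 is also found in transcripts of BIVM or ERCC5, and reads over the junction are not counted separately in the files, so how many of them lie behind the expected counts was not tested.

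Among the other 57 readthrough genes, 36 were tested and 9 were called at an adjusted p under 0.05 (edgeR quasi-likelihood test, Benjamini-Hochberg over all genes), which is 25.0% beside a background of 36.4% of all 12368 genes tested. Of the 36 tested, 3 were called higher in 4HC, against a background of 19.2% of all genes tested, and 6 were called lower, against 17.1%. With library size as the only scaling, or with the replicate number as a block, 3 were higher and 3 lower, and the shares of all genes under these settings were not determined. The median log2 fold change of the 36 was 0.02 and that of all genes tested 0. The median size of the change without its sign was 0.20, beside 0.13 for all genes tested. The groups did not overlap in CPM (counts per 1000000 after TMM scaling) for 3 of the 36 (8.33%), while 45.3% of all genes tested had groups that did not overlap. Of the 9 called genes, 2 had no overlap between the groups, namely POC1B-GALNT4 and ISY1-RAB43, and 7 overlapped. DESeq2 called 1 of the 57, POC1B-GALNT4, and limma on log2(TPM + 1) called 3. The shares of all genes called by DESeq2 and limma were not determined, so these lower counts cannot be read as particular to the readthrough genes. Each of the 9 calls but those of TVP23C-CDRT4 and ABHD14A-ACY1 was lost when at least 1 of the samples was left out, and without the first 4HC sample 5 genes were called.

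**Figure D2:**
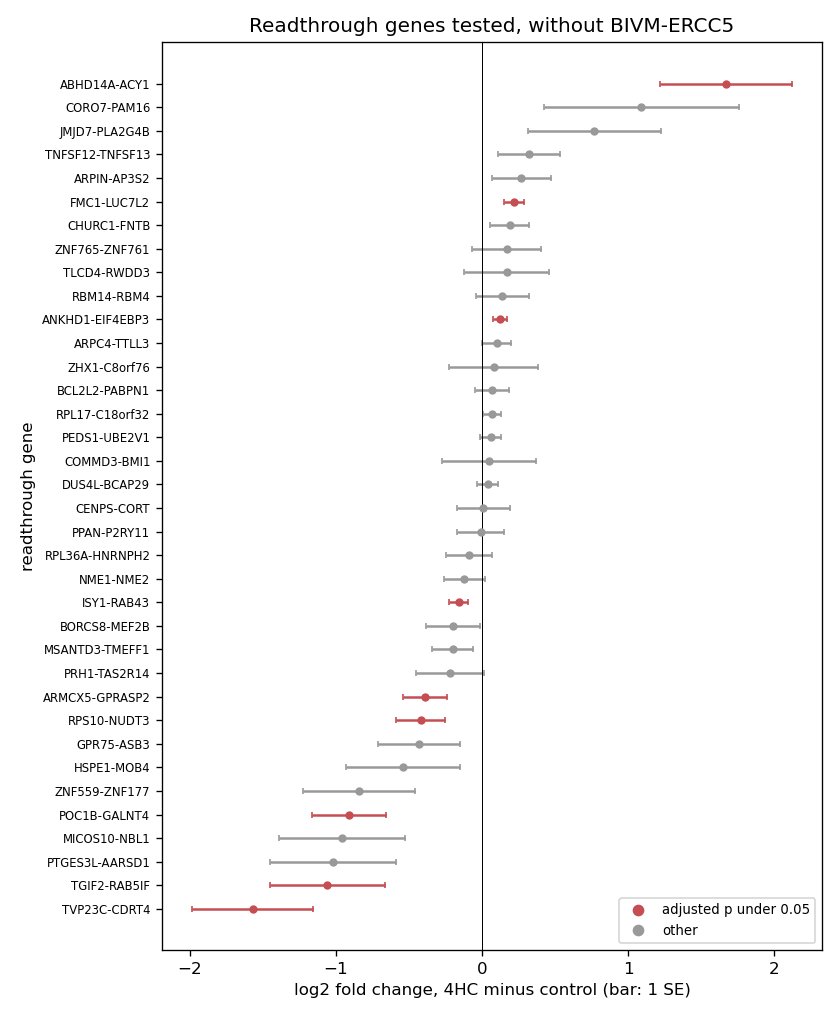
Log2 fold change of 4HC minus control (x axis) for each of the 36 tested readthrough genes other than BIVM-ERCC5 (y axis), with bars of 1 SE and the 9 called genes in red. The values run from −1.57 in TVP23C-CDRT4 to 1.67 in ABHD14A-ACY1, and the called genes closest to 0, ANKHD1-EIF4EBP3, ISY1-RAB43 and FMC1-LUC7L2, have the shortest bars of the 9.

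TVP23C-CDRT4 had the largest fall. TVP23C is a Golgi membrane protein, and CDRT4 is a little-studied gene of the region duplicated in Charcot-Marie-Tooth disease. The readthrough gene had 49.25, 34.71 and 56.04 counts in controls and 0, 0 and 47.28 in 4HC samples, so that the third 4HC sample lay within the controls. Its log2 fold change was −1.57 ± 0.415 (SE; adjusted p = 0.00216, edgeR). The downstream parent gene CDRT4 had 0, 13.86 and 0 counts in controls and 39, 35 and 7.54 in 4HC samples, with a log2 fold change of 2.52 ± 0.507 (adjusted p = 7.13e-05, edgeR). The samples low in the readthrough gene were those high in CDRT4. TVP23C stayed between 45.4 and 62.2 counts. The sum of the 3 genes was 94.64, 101.46 and 109.17 in controls and 91.36, 97.23 and 108.88 in 4HC samples, and its log2 fold change was −0.04 (adjusted p = 0.828, edgeR). In DESeq2 neither the readthrough gene (adjusted p = 0.695) nor CDRT4 (adjusted p = 0.413) passed. With 1 sample left out at a time CDRT4 stayed called at 1.93 (without the third control) to 7.78 (without the second, the only control with counts). The call of the readthrough gene also held, and the log2 fold change of TVP23C-CDRT4 ran from −0.98 to −8.55. The latter came without the third 4HC sample. Both it and the 7.78 of CDRT4 were fitted against 0 counts and are no measure of size.

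ABHD14A-ACY1 had the largest rise. ABHD14A is an alpha/beta hydrolase, and ACY1 is aminoacylase 1, which removes the acetyl group from N-acetylated amino acids. The readthrough gene had 11.11, 0 and 6.09 counts in controls and 7.66, 22.84 and 23.83 in 4HC samples, with a log2 fold change of 1.67 ± 0.452 (SE; adjusted p = 0.00271, edgeR). The first 4HC sample lay between the controls. ABHD14A itself rose without overlap, from 97.4, 123 and 108 counts to 156, 175 and 167 (log2 fold change 0.60 ± 0.114, adjusted p = 2.79e-05, edgeR), and ACY1 did not pass (−0.05, adjusted p = 0.718, edgeR). The locus sum rose as well, by 0.27 on the log2 scale (adjusted p = 0.00233, edgeR). With 1 sample left out the readthrough gene stayed called, at 1.10 to 2.56 on the log2 scale, and in DESeq2 its adjusted p was 0.308.

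POC1B-GALNT4 fell. POC1B is a centriole protein, and GALNT4 starts mucin-type O-glycosylation. The readthrough gene had 51.62, 31.90 and 36.39 counts in controls and 32.12, 16.82 and 14.84 in 4HC samples. In CPM these were 3.18, 1.96 and 2.20 in controls and 1.94, 1.04 and 0.908 in 4HC samples, so that the groups did not overlap, though the lowest control and the highest 4HC sample nearly met. Its log2 fold change was −0.91 ± 0.251 (SE; adjusted p = 0.00343, edgeR), and −0.67 with an adjusted p of 0.0637 when the first control was left out. Neither POC1B (0.06, adjusted p = 0.620) nor GALNT4 (−0.09, adjusted p = 0.575) passed in edgeR. The readthrough gene had 2 transcripts. NM_001199781 had 51.62, 16.48 and 36.39 counts in controls and 0 in each 4HC sample, whereas NM_001199782 had 0, 15.43 and 0 in controls and 32.12, 16.82 and 14.84 in 4HC samples. The second control thus held both transcripts. Neither passed over all transcripts, with adjusted p of 0.0988 and 0.899 (edgeR).

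**Figure D3:**
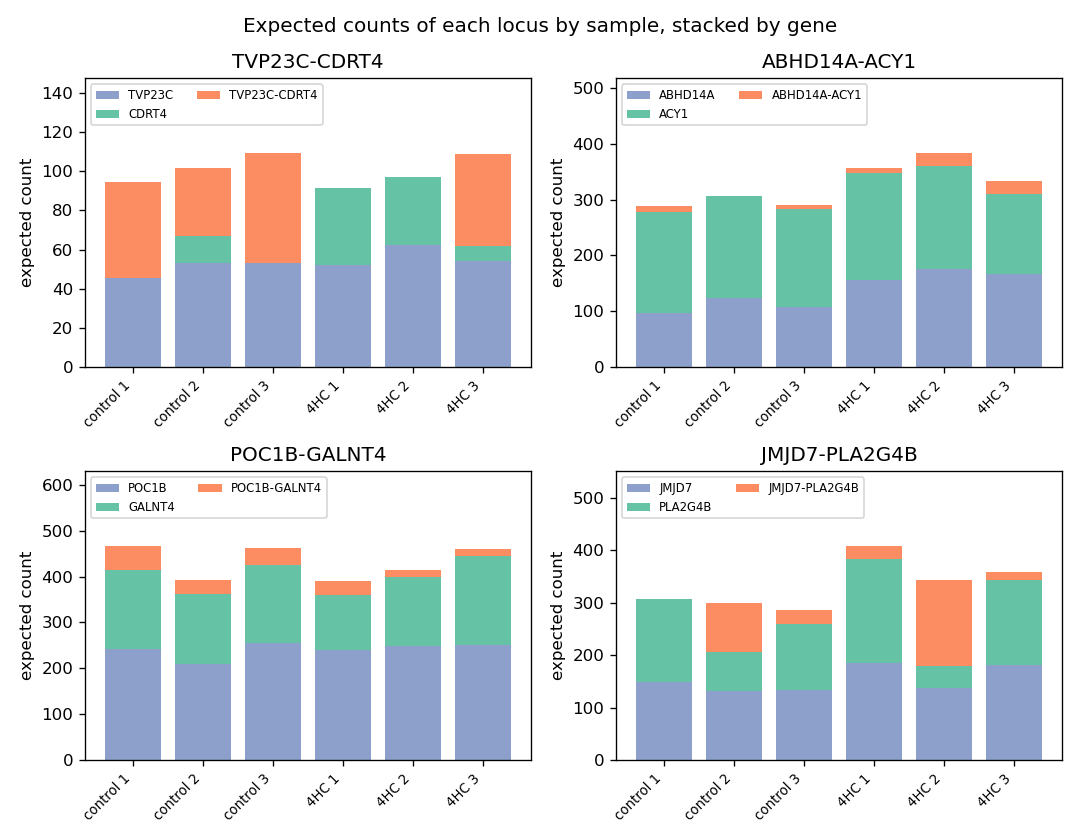
Expected counts (y axis, from 0) in each of the 6 samples (x axis) at 4 loci, stacked by gene with the readthrough gene in orange on top. JMJD7-PLA2G4B was added after its values were seen. In TVP23C-CDRT4 the readthrough gene is absent from the first and second 4HC samples while the bar heights, 91.36 to 109.17, differ little.

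The 6 remaining calls were smaller than 1.1 on the log2 scale. FMC1-LUC7L2, which joins an assembly factor of mitochondrial ATP synthase to a splicing factor bound to U1 snRNP, had 446, 519 and 628 counts in controls and 592, 623 and 645 in 4HC samples. In 4HC it was higher by 0.22 ± 0.069 on the log2 scale (SE; adjusted p = 0.00865, edgeR), and 0.11 with an adjusted p of 0.212 without the first control. ANKHD1-EIF4EBP3, which joins an ankyrin repeat protein to a repressor of translation that binds eIF4E, had 1343, 1155 and 1315 counts in controls and 1448, 1322 and 1381 in 4HC samples. The change was 0.12 ± 0.048 on the same scale (adjusted p = 0.0420, edgeR), and 0.06 with an adjusted p of 0.379 without the second control. It also lost the call without the third control (0.0647), the first 4HC sample (0.188) or the third (0.0623). ISY1-RAB43, which joins a spliceosome component to a Rab GTPase of the Golgi, had 440, 486 and 480 counts in controls and 409, 427 and 423 in 4HC samples. Its log2 fold change was −0.16 ± 0.064 (adjusted p = 0.0414, edgeR), and the call held when the first control was left out and was lost when any other sample was (adjusted p from 0.0531 to 0.153).

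TGIF2-RAB5IF, which joins a homeobox repressor to a membrane protein that binds RAB5, had 19.07, 8.66 and 15.88 counts in controls and 3.93, 9.85 and 7.21 in 4HC samples. Its log2 fold change was −1.06 ± 0.393 (SE; adjusted p = 0.0302, edgeR). The call was lost without the first control (0.171), the third control (0.0902), the first 4HC sample (0.171) or the third (0.0614). ARMCX5-GPRASP2, from a cluster of armadillo genes on the X chromosome, had 102, 118 and 162 counts in controls and 86.6, 133 and 72.4 in 4HC samples. The change was −0.39 ± 0.152 on the log2 scale (adjusted p = 0.0400, edgeR), and −0.19 without the third control (0.432), −0.31 without the first 4HC sample (0.154) and −0.21 without the third (0.271). RPS10-NUDT3, which joins a protein of the small ribosomal subunit to a phosphohydrolase of inositol phosphates, had 126, 132 and 75.0 counts in controls and 79.0, 55.8 and 114 in 4HC samples. On the log2 scale it changed by −0.42 ± 0.169 (adjusted p = 0.0441, edgeR), and the call was lost without the first control (0.190), the second control (0.274), the first 4HC sample (0.118) or the second (0.375).

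Of 114 parent genes other than BIVM and ERCC5, 102 were tested and 31 were called (edgeR, 30.4% beside the background of 36.4%). Of these, 18 were higher (background 19.2% of all genes tested) and 13 lower (background 17.1%). With library size as the only scaling 22 were higher and 10 lower, and the shares of all genes under that scaling were not determined. The groups did not overlap in 35 of the 102 (34.3%, beside 45.3% of all genes tested). Among the called parent genes, the largest rises after CDRT4 were in ABHD14A and in NBL1, a secreted antagonist of BMP signalling, which went from 203, 227 and 223 counts to 335, 302 and 325 (log2 fold change 0.56 ± 0.080, adjusted p = 1.33e-07, edgeR). The largest falls among those called were in DUS4L, RAB43 and PPAN, a factor of ribosome assembly, at −0.47, −0.43 and −0.41. RAB43 went from 339, 269 and 321 counts to 259, 194 and 240 (adjusted p = 0.000119, edgeR), while its partner ISY1 stayed at −0.01 (adjusted p = 0.878). NBL1, PPAN and the size order of the parent genes were picked after their values were seen.

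At 4 loci both parent genes were called, and in all 4 they went in opposite directions. DUS4L, which makes dihydrouridine in tRNA, fell from 165, 136 and 132 counts to 93.4, 103 and 118 (log2 fold change −0.47 ± 0.123, adjusted p = 0.00209, edgeR), while BCAP29, a membrane protein of the endoplasmic reticulum, rose from 771, 779 and 799 to 860, 1027 and 871 (0.23 ± 0.056, adjusted p = 0.000954). DUS4L-BCAP29 itself had 333, 355 and 398 counts in controls and 365, 398 and 356 in 4HC samples (0.04, adjusted p = 0.687, edgeR). ARPIN, an inhibitor of the Arp2/3 complex, rose by 0.18 on the log2 scale (adjusted p = 0.00746, edgeR) and AP3S2, a subunit of the AP-3 adaptor, fell by 0.18 (adjusted p = 0.0105). The RNA-binding proteins RBM14 and RBM4 changed by 0.16 and −0.20 (adjusted p = 0.00593 and 0.000164, edgeR). RPS10 rose by 0.09 (adjusted p = 0.0160, edgeR) and NUDT3 fell by 0.20 on the log2 scale (adjusted p = 9.67e-05). RPS10 lost its call without the first control (0.0629), the third control (0.170) or the second 4HC sample (0.0542), BCAP29 and RBM14 lost theirs without the second 4HC sample (0.0764 and 0.0924), and AP3S2 lost its call without the third control (0.127) or the second 4HC sample (0.125).

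The sum of each readthrough gene and its parent genes does not depend on how reads were divided among the 3. Within 0.02 of a whole number lay 79.5% of the locus sums above 0, beside 5.42% of the values of the readthrough genes and 27.7% of those of the parent genes, and in 44 of the 58 loci this held in every sample. Of 56 loci tested other than that of BIVM-ERCC5, 15 sums were called (edgeR, 26.8% beside a background of 37.2%), 9 higher (background 19.3%) and 6 lower (background 17.9%). With library size as the only scaling 13 were higher and 4 lower. The shares of all rows under that scaling were not determined, so the shift toward higher calls cannot be read as particular to these loci. Of the 9 called readthrough genes, 2 had a locus sum that was called, ABHD14A-ACY1 and ISY1-RAB43, and 7 did not. The median size of the change without its sign was 0.07 for the locus sums and 0.13 for all rows of that table.

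Replicates of the readthrough genes differed more than those of their parent genes or of the sums. For 35 readthrough genes with a mean of at least 10 counts, the median coefficient of variation (CV) within a group was 29.5%. It was 5.69% for 101 parent genes, 3.68% for 56 locus sums and 5.56% for 9288 other genes in the same range of mean counts (10.8 to 1330). Only the ends of that range were matched and not the count levels within it. The part of count level in these CVs was not tested. The CVs are descriptions over genes and carry no test.

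**Figure D4:**
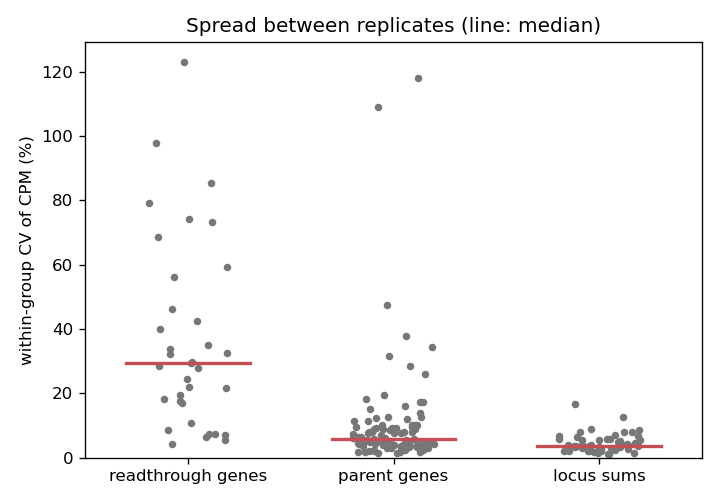
Within-group CV of CPM in percent (y axis, mean of the control and the 4HC CV) for readthrough genes, their parent genes and the locus sums with a mean of at least 10 counts, without the BIVM-ERCC5 locus (x axis). Points are genes or loci and red lines are medians, which lie at 29.5%, 5.69% and 3.68%.

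Some readthrough genes were at 0 in 1 sample and well above it in another. Of 47 readthrough genes with at least 10 counts in a sample, 15 (31.9%) had 0 in another sample, beside 42 of 12790 genes (0.328%) in the whole table, of which 27 were not readthrough genes by this rule. BIVM-ERCC5 is among the 15. In 12 of the 47 (25.5%, beside 0.258% of all genes), both values occurred among samples of the same condition. Neither comparison was matched for count level, and some of the 15 peaked low, such as RNF103-CHMP3 at 10.45 counts. SETDB2-PHF11 had 17.39 counts in the third 4HC sample and 0 in the other 5, and PHOSPHO2-KLHL23 had 16.46 and 15.43 in the third sample of each group and 0 in the other 4. CORO7-PAM16, which joins a coronin of the Golgi to a part of the mitochondrial import motor, had 11.87, 0 and 0 counts in controls and 12.09, 0 and 14.34 in 4HC samples (log2 fold change 1.09 ± 0.667, adjusted p = 0.207, edgeR). JMJD7-PLA2G4B, which joins a lysyl hydroxylase to a phospholipase A2, had 0, 92.10 and 26.43 counts in controls and 23.52, 163.43 and 15.10 in 4HC samples, and its parent gene PLA2G4B was low where the readthrough gene was high, with 158, 74.9 and 125 counts in controls and 199, 43.0 and 163 in 4HC samples. The genes named here other than CORO7-PAM16 were picked after their values were seen.

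The 5 readthrough genes highest in mean CPM were ANKHD1-EIF4EBP3 (77.8 ± 6.01 in controls and 84.5 ± 2.93 in 4HC, SD, n = 3), FMC1-LUC7L2 (32.4 ± 5.22 and 37.9 ± 1.92), RPL17-C18orf32 (30.9 ± 2.85 and 32.5 ± 1.24), ISY1-RAB43 (28.7 ± 1.42 and 25.7 ± 0.865) and PEDS1-UBE2V1 (22.5 ± 1.88 and 23.4 ± 1.99). RPL17-C18orf32, which starts in a gene of the large ribosomal subunit, did not pass (log2 fold change 0.07, adjusted p = 0.400, edgeR), nor did PEDS1-UBE2V1, which joins an enzyme of plasmalogen synthesis to a ubiquitin-conjugating enzyme variant (0.06, adjusted p = 0.545). RPL17-C18orf32 had 452, 513 and 554 counts in controls and 554, 536 and 508 in 4HC samples. Its transcript NM_001199355 had 0, 33.03 and 0 counts in controls and 117.90, 135.07 and 101.73 in 4HC samples, while NM_001199356 had 452, 480 and 554 in controls and 436, 401 and 406 in 4HC samples. The groups did not overlap in either transcript, yet neither passed over all transcripts (adjusted p = 0.618 and 0.318, edgeR), and they were singled out after their values were seen.

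Over the 25 loci with at least 10 readthrough counts in every sample, the readthrough gene took a mean share of 0.494% (RPS10-NUDT3) to 54.1% (ANKHD1-EIF4EBP3) of the locus counts, with a median of 12.2%. The share of ANKHD1-EIF4EBP3 was 53.5% ± 4.86 in controls and 54.8% ± 2.09 in 4HC (SD, n = 3), and its parent gene EIF4EBP3 had at most 4.48 counts. PRH1-TAS2R14, which joins a salivary proline-rich protein to a bitter taste receptor, took 48.3% ± 11.6 and 47.0% ± 3.93. CENPS-CORT, which joins a kinetochore protein to the neuropeptide cortistatin, took 38.5% ± 2.72 and 40.9% ± 5.06. ISY1-RAB43 took 35.3% ± 2.18 and 35.1% ± 1.70, and DUS4L-BCAP29 took 28.1% ± 1.84 and 26.7% ± 0.841. In these 5 loci the groups overlapped. With 3 samples against 3 the exact two-sided permutation test cannot go below p = 0.1, and 1 of the 25 shares reached it, that of BORCS8-MEF2B, named after its values were seen, with 15.5% ± 0.467 in controls and 13.9%, 14.0% and 11.1% in the 4HC samples.

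**Figure D5:**
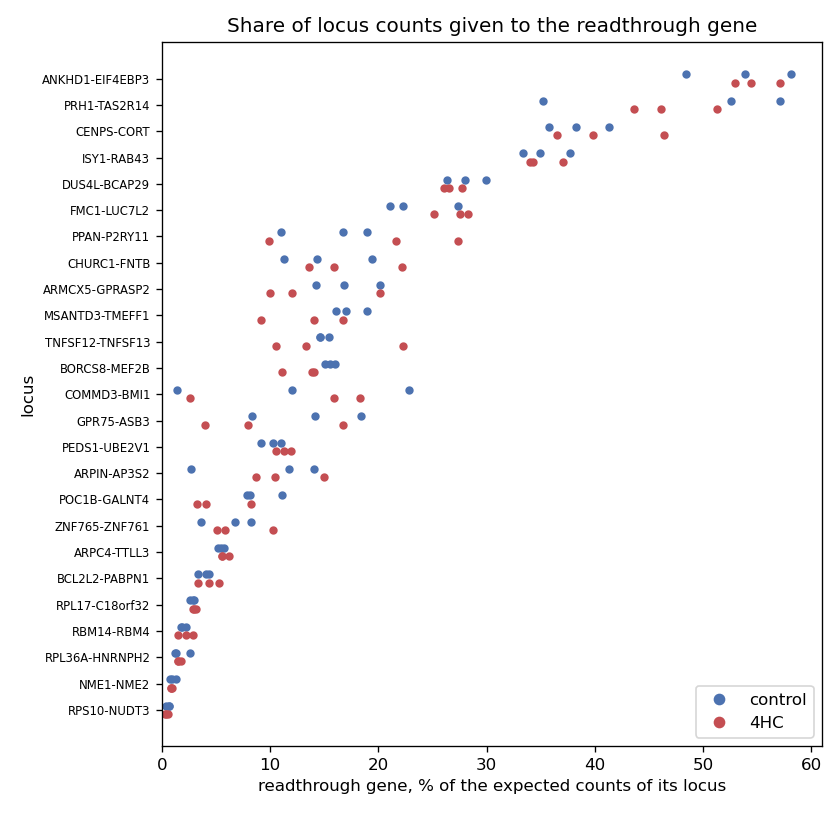
Readthrough share of the expected counts of a locus in percent (x axis) for each of 25 loci (y axis), with 3 control samples in blue and 3 4HC samples in red. Shares run from under 1% in RPS10-NUDT3 to a mean of 54.1% in ANKHD1-EIF4EBP3. In BORCS8-MEF2B, the locus with p = 0.1 in the exact test, the 3 controls lie to the right of the 3 4HC samples.

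At the level of transcripts, 46 of the 103 transcripts of the other readthrough genes were tested and 0 were called by edgeR at an adjusted p under 0.05, beside 1.29% of all 42216 transcripts tested (0.706% higher and 0.587% lower). At an unadjusted p under 0.05 there were 3 of the 46. DESeq2 called 1 of the 46 and limma 0. The shares of all transcripts at that unadjusted threshold, in DESeq2 and in limma were not determined. The coefficient of variation between replicates that edgeR estimated over all transcripts was 0.724, beside 0.0277 over all genes. Called genes with 1 transcript had the same counts at both levels but larger p-values in the transcript fit. For TVP23C-CDRT4 the p-value was 0.000419 in the gene fit and 0.44 in the transcript fit (edgeR, unadjusted). For ABHD14A-ACY1 the values were 0.000543 and 0.272, and for TGIF2-RAB5IF 0.00973 and 0.21.

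Genes of 3′ end processing, from a list of 34 that were all tested, were called in 16 cases (47.1%, beside the background of 36.4%), 7 higher and 9 lower (edgeR). The median size of their change without its sign was 0.10, below the 0.13 of all genes tested. The background was not matched for count level, so the share called does not show a larger response. The largest changes among those called were in CLP1, a subunit of cleavage factor II, which rose from 381, 416 and 389 counts to 464, 516 and 518 (log2 fold change 0.33 ± 0.065, adjusted p = 4.48e-05), in CCNK, the cyclin partner of CDK12, which rose from 725, 809 and 839 to 977, 886 and 944 (0.24 ± 0.053, adjusted p = 0.000251), and in CSTF3, a subunit of the cleavage stimulation factor, which rose from 2240, 2088 and 2311 to 2523, 2612 and 2679 (0.23 ± 0.040, adjusted p = 3.79e-06, edgeR). The groups did not overlap in these 3 genes. The genes that fell, listed after their values were seen, were WDR82, PCF11, CDK12, SSU72, RPRD1A, CPSF2, PAPOLA, RBBP6 and XRN2, by 0.11 to 0.23 on the log2 scale. No called gene of the list changed by more than CLP1, and the median over the list was −0.03. PABPN1, which is in this list, is also a parent gene of BCL2L2-PABPN1. Of the 10 NMD factors, all tested, 4 were called (40.0%, beside the background of 36.4%), 1 higher and 3 lower (edgeR). The median size of their change without its sign was 0.09, also below the 0.13 of all genes tested. SMG6, the endonuclease of NMD, rose from 677, 740 and 758 counts to 905, 891 and 933 (log2 fold change 0.33 ± 0.052, adjusted p = 1.35e-06). SMG1, the kinase that phosphorylates UPF1, fell by 0.18 (adjusted p = 4.52e-05), and SMG8, a regulator of SMG1, fell by 0.16 on the log2 scale (adjusted p = 0.0116, and 0.0612 without the first control, edgeR). The expected counts of SMG1 were not whole numbers, and BOLA2-SMG1P6, described below, carries a copy of part of SMG1. The change in SMG1 is therefore uncertain. UPF1, the central helicase of the pathway, also named after its values were seen, had −0.01 and did not pass (adjusted p = 0.912, edgeR). The part of these genes in the readthrough counts was not tested.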

How the data were processed

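Bulk RNA-seq of 6 samples of COV434 cells was analysed, 3 controls and 3 treated with 15 µM 4HC for 24 h, grouped by their labels. After read filtering with SOAPnuke the authors deposited, per gene and per transcript, expected counts without normalization and TPM values scaled by length and depth. The submitters' processing notes name HISAT2, Bowtie2 and RSEM 1.3.1, with GRCh38.p13, without giving their roles. Whether reads were counted by strand is not given in the sources used here. The deposited tables also hold the authors' own comparison (fold changes, p-values and q-values), which was not used, and a second gene table with the same 27 columns, which was left out. The members and the lists were chosen with earlier results of these data known.

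Expected counts of the whole gene table (12368 genes tested), of the table with each locus summed (12284) and of the transcript table (42216) were rounded to integers. The test was that of edgeR 4.0.16 under R 4.3.3 (TMM, filterByExpr, quasi-likelihood test, condition as the only term), with Benjamini-Hochberg adjustment over all rows tested and calls at an adjusted p under 0.05. Counts printed per sample are not rounded to whole numbers before scaling to CPM. A count of 0 in a library allows up to 3 counts, for counting error only. The alternatives were DESeq2 1.42.0, its size factors in edgeR, library size only, no filter, at least 10 counts in every sample, unrounded counts, the replicate number as a block, limma 3.58.1 on log2 of TPM with a pseudocount of 1 or 0.1, a fold of at least 2 with an unadjusted p under 0.05, and each sample left out. The fits were also run on simulated counts, with no error from dividing reads and with a smaller replicate spread than that estimated for the transcripts here. That run therefore cannot vouch for calls on the readthrough genes or their transcripts. Genes were named by a rule: BIVM-ERCC5 and its parent genes, each called readthrough gene with its parent genes, the 5 readthrough genes highest in CPM, in fold change and in share of the locus, up to 3 called genes per list, the granulosa markers, and the parent genes called in opposite directions at up to 5 loci. Other genes were named after their values were seen. Structures and junctions came from GENCODE release 29, since the coordinates of several readthrough genes in the table mix strands or contigs (12 of 49 strands differed). Tables were handled in pandas 2.3.3 (Python 3.11.15) and figures drawn in matplotlib 3.10.9.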

Additional observations from a re-analysis of the deposited data

How the results depend on the processing

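Against 9 called readthrough genes other than BIVM-ERCC5, DESeq2 called 1, no filter gave 16, limma 3 on log2(TPM + 1) and 2 on log2(TPM + 0.1), and a fold of at least 2 with an unadjusted p under 0.05 (1.15% of all genes tested) gave 4. Leaving out 1 sample gave 5 to 11, the lowest without the first 4HC sample. For the parent genes DESeq2 gave 19 calls in place of 31 and the rule on fold and unadjusted p gave 1, with 25 to 33 when 1 sample was left out. That rule called 0 of the locus sums, 0 of the 3′ end genes and 0 of the NMD factors, and 1 readthrough transcript, as did DESeq2. One sample left out gave 12 to 15 locus sums, 0 to 0 transcripts, 11 to 16 genes of 3′ end processing and 4 to 4 NMD factors. The median readthrough share of 25 loci was 9.37% in TPM in place of 12.2%, and 11.4% to 14.1% with 1 sample left out. The other planned settings left each of these counts within 1.5 times its main value. Except for genes under the rule on fold and unadjusted p, the share of all rows called under each alternative was not determined. The differences therefore cannot be read as particular to these sets, and their cause was not tested.

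Same-numbered samples of the 2 groups had correlations of −0.03, 0.01 and 0.05 in their deviations from the group means. Samples with different numbers had −0.08 to 0.07. These values show no pairing by number over all genes, and they cannot exclude one. With the replicate number as a block, 6 readthrough genes, 30 parent genes, 14 locus sums, 0 transcripts, 15 genes of 3′ end processing and 4 NMD factors were called. The shares of all rows called with that block were not determined.

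Of 683 values of 46 named genes under the alternatives, 570 kept direction and call, 84 lost the call, 6 gained one and 23 changed sign, all 23 in genes that were not called. With library size as the only scaling LUC7L2 and ISY1 were at 0.01 on the log2 scale. With 1 sample left out, log2 fold changes ran from −0.13 to 0.07 in ACY1, −0.01 to 0.11 in POC1B, −0.30 to 0.07 in GALNT4, −0.04 to 0.03 in LUC7L2, −0.05 to 0.01 in ISY1, −0.05 to 0.13 in ANKHD1, 0 to 0.13 in RPL17-C18orf32, −0.01 to 0.12 in PEDS1-UBE2V1, −0.11 to 0.17 in CENPS-CORT, −0.02 to 0.10 in DUS4L-BCAP29, −0.16 to 0.22 in AMH and −0.64 to 0 in INHA. The filter left 21 readthrough genes untested in the main test.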

Other observations

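A further 17 symbols with 1 hyphen had only 1 of their parent genes in the gene table and fell outside the set. Symbols with a short part after the hyphen were not listed. The 17 were listed after the data had been examined. Of these, 7 were tested and 2 were called by edgeR (28.6%, beside a background of 36.4% of all genes tested). PMF1-BGLAP, which joins a kinetochore gene to the gene of the bone protein osteocalcin, rose from 23.65, 28.81 and 30.84 counts in controls to 39.99, 38.55 and 43.18 in 4HC samples, without overlap (log2 fold change 0.53 ± 0.213, SE, adjusted p = 0.0440, edgeR). BOLA2-SMG1P6 fell from 1019, 1043 and 980 counts to 967, 859 and 861 (−0.18 ± 0.051, adjusted p = 0.00371, edgeR). It carries a copy of part of SMG1 and near-identical copies exist, so its counts are uncertain. ABCF2-H2BE1 was the other one with a mean near 1000 counts, with 982, 1064 and 1060 in controls and 1047, 894 and 936 in 4HC samples (−0.11, adjusted p = 0.0772, edgeR).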
